A study of Mus musculus with 6 samples.

Results

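Short RNA fragments that matched 6 abundant non-coding RNAs were followed in cultured mouse bone-marrow monocytes. The RNAs were the Y RNAs Rny1 and Rny3, the vault RNA Vaultrc5, the RNA of RNase MRP (Rmrp), the RNA of RNase P (Rpph1) and the 7SK RNA (Rn7sk). They were chosen by name, and a read of 18 to 40 nt was counted when it matched a GENCODE transcript of one of them exactly, on the sense strand, and matched no miRNA hairpin. All 6 genes had reads in every sample, among 1200 hairpin and small RNA genes with reads, and 480 of those genes were other small RNAs without a hairpin.

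The cells were bone-marrow monocytes of wild-type C57BL/6 mice, called BMMs (bone-marrow monocytes/macrophages) hereafter, in 3 control samples and 3 samples exposed to super-low-dose LPS (5 pg/ml). LPS is the endotoxin of Gram-negative bacteria, and the study asked how such a small amount programs monocytes. The study's methods give PBS as the control and 4 h as the exposure, and state that the study's mice were male and aged 7 to 10 weeks at the start. Neither they nor the labels say whether the 3 samples of a group came from separate animals or cultures. The p-values therefore measure only the spread between these samples, which may be technical. The labels call the cells monocytes. The myeloid hairpins Mir223, Mir142, Mir21a and Mir146 together took 102264 to 137306 RPM (reads per 1000000 reads of the file) in the control samples. With LPS they took 103914 to 122908, the highest being LPS replicate 2, where Mir146 was at 28229 RPM against 1517 to 2522 elsewhere. Most of the sum in each sample was Mir21a (76631 to 111477 RPM over all samples), whereas Mir223 was at 3299 to 4041. The 14 hairpins that mark other cell types summed to 53.3 to 70.0 RPM in the control samples and 49.9 to 107 with LPS, the highest being LPS replicate 2, and 4 of them (Mir1a-1, Mir124a-1, Mir124-2 and Mir145a) were at 0 throughout.

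These RNAs are made by RNA polymerase III and act at full length. Y RNAs bind the Ro60 protein and La, and their paired ends are a well-known source of short fragments in blood and in immune cells. Vault RNA is part of the vault particle, a large cytoplasmic ribonucleoprotein. RNase MRP and RNase P are related RNA enzymes that process precursors of ribosomal RNA and of transfer RNA, and 7SK RNA holds the elongation factor P-TEFb inactive. Only pieces of up to 40 nt were sequenced here, so the values describe fragments and not the intact RNAs.

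The fragments of the Y RNAs came from the ends of the transcripts. Rny1 is a 112-nt RNA at chr6:47788069-47788180 on the minus strand, and Rny3 a 102-nt RNA at chr6:47781624-47781725 on the plus strand (GRCm38, GENCODE M21). The 3 most read fragments of each and its most read 5′ fragment are shown because they show where its reads begin and end. Positions count from 1 at the 5′ end of the transcript, and capitals mark the longest run of 8 bases that the leading 3′ fragments, or the 5′ fragments, of the 2 RNAs have in common.
Rny1, bases 83 to 106: cttctcactactgCACTTGACtag
Rny1, bases 84 to 106: ttctcactactgCACTTGACtag
Rny1, bases 83 to 109: cttctcactactgCACTTGACtagtct
Rny1, bases 1 to 30: ggcTGGTCCGAaggtagtgagttatctcaa
Rny3, bases 74 to 99: ctcccactgcttCACTTGACcagcct
Rny3, bases 73 to 99: gctcccactgcttCACTTGACcagcct
Rny3, bases 73 to 100: gctcccactgcttCACTTGACcagcctt
Rny3, bases 1 to 24: ggtTGGTCCGAgagtagtggtgtt

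The fragments of the RNase RNAs and of 7SK RNA are shown for contrast, since those of Rmrp share 1 start whereas those of Rpph1 and Rn7sk do not. The fragment of Rpph1 at bases 256 to 279 and those of Rn7sk at bases 305 to 331 and 306 to 331 also match other genes. Each of these had only 0 to 6 reads in a sample. Rmrp lies at chr4:43492783-43493063, Rpph1 at chr14:50807449-50807767 and Rn7sk at chr9:78175303-78175633, all on the minus strand of GRCm38, with lengths of 281, 319 and 331 nt. The 281-nt entry of Rmrp has a shorter 271-nt entry inside it, which begins at base 6 of the longer one.
Rmrp, bases 5 to 34: agctcgctctgaaggcctgtttcctaggct
Rmrp, bases 5 to 35: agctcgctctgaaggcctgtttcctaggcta
Rmrp, bases 5 to 42: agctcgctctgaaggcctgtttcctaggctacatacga
Rpph1, bases 286 to 313: cctcataacccaattcagactactctcc
Rpph1, bases 286 to 314: cctcataacccaattcagactactctccc
Rpph1, bases 256 to 279: ttcaatggctgaggtgaggcacct
Rn7sk, bases 295 to 331: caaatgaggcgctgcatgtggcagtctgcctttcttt
Rn7sk, bases 305 to 331: gctgcatgtggcagtctgcctttcttt
Rn7sk, bases 306 to 331: ctgcatgtggcagtctgcctttcttt

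The samples held 2201520 to 17691405 reads, of which 54.5 to 63.7% matched a miRNA hairpin. LPS replicate 2 was the deepest and stood apart from the rest, with a single read for 18.6% of its distinct sequences, a share that ran from 67.1 to 74.6% in the others, and with 28229 RPM of Mir146 against 1517 to 2522. No read matched the antisense strand of a member in any sample. A count of 0 allows up to 0.170 RPM in LPS replicate 2 and up to 1.36 in LPS replicate 3, the shallowest sample, which covers counting error only.

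The members together took 3560, 3202 and 3304 RPM in control replicates 1 to 3, and 2900, 2646 and 3138 in LPS replicates 1 to 3. Every LPS sample lay below every control sample in this sum, but the groups overlapped under both other scalings, which were chosen after seeing the data. Per 1000000 hairpin reads, the sum was 6043, 5030 and 5590 in the control replicates and 5269, 4855 and 5167 with LPS. After TMM normalisation (a scaling under which most features are taken not to change), LPS replicate 2 (5292) lay above control replicates 2 (5040) and 3 (5276). The Y RNAs made up 62.3 to 77.1% of it, and Rpph1 and Rn7sk together 1.24 to 2.47%. In bulk samples, fewer cells of a type and less RNA per cell cannot be told apart.

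Rny1 gave the most fragments. Its levels in RPM were 1913, 1409 and 1543 in control replicates 1 to 3 and 1523, 1114 and 1484 in LPS replicates 1 to 3. The groups overlapped, with control replicate 1 the highest and LPS replicate 2 the lowest. LPS was the lower sample in 3 of 3 pairs of the same replicate number (exact sign-flip test, p = 0.25, the smallest that 3 pairs allow). It was also lower in 3 of 3 pairs for Rny3. The other RNAs were mixed, with LPS lower in 2 of 3 pairs for Vaultrc5 and Rpph1 and in 1 of 3 for Rmrp and Rn7sk. The control mean of Rny1 was 1622 ± 261 (SD, n = 3) and the LPS mean 1374 ± 225. The difference of -248 gave p = 0.4 in an exact two-sided permutation test. The difference became -102 without control replicate 1 and -118 without LPS replicate 2. With 3 samples against 3 that test cannot go below 0.1. So none of the 6 tests of levels, none of the 6 of 5′ shares and not that of a 3′ share below could have passed 0.05.

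Rny3, the other Y RNA, was the 1 member whose groups did not overlap. It had 832, 734 and 646 RPM in the control replicates and 619, 534 and 575 with LPS, so the highest LPS sample lay just under the lowest control sample. The means were 737 ± 93.0 and 576 ± 42.8 (SD, n = 3 each; exact two-sided permutation test, p = 0.1, the smallest possible). LPS lay below every control sample in 15 of the 440 features tested, or 3.41%, and above every control sample in 6, or 1.36%. Leaving out LPS replicate 2 could not make the groups of Rny3 overlap, so it is no check of this result. Without that sample, LPS lay below every control sample in 4.32% of features. After TMM normalisation, Rny3 had 1245, 1155 and 1031 counts per 1000000 scaled counts of all features in the control replicates and 954, 1068 and 890 with LPS, and the groups overlapped. These values have another denominator than RPM and are not on its scale. They also overlapped when scaled to the reads that matched a hairpin.

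**Figure D1:**
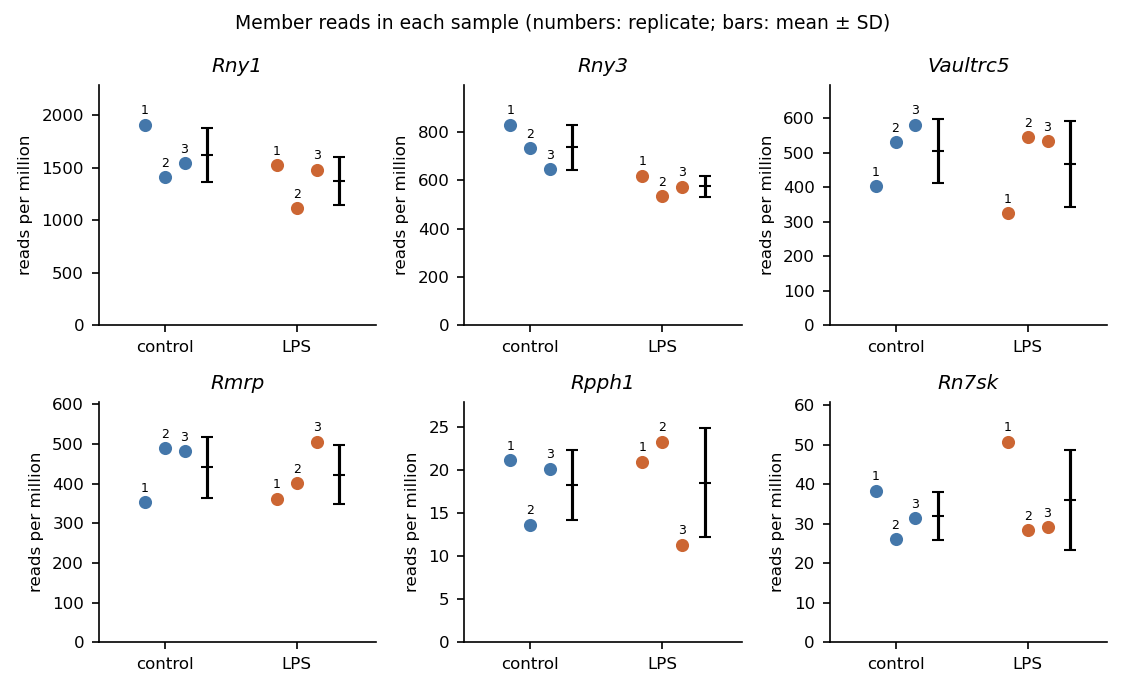
RPM (vertical axes, from 0) for each of the 6 RNAs in the 3 control (blue) and 3 LPS (orange) samples. Small numbers give the replicate, and black bars the mean ± SD. The LPS samples of Rny3 sit between 534 and 619, below the control samples at 646 to 832, and the groups overlap in the other 5 RNAs.

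Rny1 exceeded Rny3 by 1.92 to 2.58 times in every sample, and this ratio overlapped between the groups. Within pairs of the same replicate number it was higher with LPS in 3 of 3, at 2.46 against 2.30, 2.09 against 1.92 and 2.58 against 2.39 (exact sign-flip test, p = 0.25, the smallest possible). The 2 genes lie close together on chromosome 6, on opposite strands.

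Rny1 fragments fell into a large 3′ and a small 5′ group. Reads that started at base 83 made up 50.1% of its reads on average over the 6 samples and those at base 84 a further 36.3%, and most of them ended at base 106 (41.2%) or 109 (24.1%). In the control replicates, a 3′ window of 5 bases, the last bases in which a read has to end, therefore held 38.6, 42.1 and 39.1% of its reads. With LPS it held 37.4, 37.9 and 37.6%, and the groups did not overlap. The means differed by -2.31 percentage points (exact two-sided permutation test, p = 0.1, the smallest possible). This is 1 of several end shares compared. A window of 10 bases, added after seeing the data, held 85.9, 87.96 and 89.2% in the control replicates. With LPS that window held 83.7, 89.2 and 89.7%, and the groups overlapped. The 5′ group, reads that start within the first 5 bases, held 13.6, 11.8 and 10.6% in the control replicates and 15.8, 10.7 and 10.01% with LPS. Replicate 1 had the highest 5′ share in both groups. The group means of 12.0% ± 1.48 and 12.2% ± 3.19 differed by 0.19 percentage points (exact two-sided permutation test, p = 0.9). The most read 5′ fragment, bases 1 to 30, had 204, 125 and 123 RPM in the control replicates and 196, 88.7 and 112 with LPS.

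Rny3 fragments came almost wholly from the 3′ end. They started at base 73 (39.0% on average) or 74 (39.7%) and ended at base 99 (47.8%), 100 (19.0%) or 98 (14.6%), so that 26 and 27 nt were its leading lengths. The 10-base 3′ window held 92.7 to 96.1% of Rny3 reads in 5 samples and 76.6% in LPS replicate 2. The 5′ share was 2.97, 3.50 and 4.85% in the control replicates and 2.82, 17.6 and 4.35% in LPS replicates 1 to 3. The 95% Wilson interval of LPS replicate 2 (16.9 to 18.4%) lay above those of the other samples, the highest of which reached 5.81%. The mean 5′ share of 8.26% ± 8.14 with LPS against 3.78% ± 0.97 in the control samples (exact two-sided permutation test, p = 0.7) rested on this library, and without it the difference of 4.49 percentage points became -0.19.

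In RPM, the 5′ fragments of Rny3 were at 24.7, 25.7 and 31.3 in the control replicates and at 17.5, 94.1 and 24.98 with LPS. The 24-nt fragment printed above was at 27.9 in LPS replicate 2 and at 6.02 to 11.2 elsewhere. At base 45, between the end fragments, coverage of Rny3 was 30.2 RPM in LPS replicate 2 and 6.41 to 15.4 in the other 5 samples. The 3′ fragments of Rny3 (10-base window) were lowest in that library, at 409 against 533 to 800. In Rny1 the same library showed no such excess, since its 5′ fragments were at 119 RPM against 149 to 259 elsewhere. The higher depth and the few sequences with a single read in LPS replicate 2 moved with this pattern. So did the epithelial hairpins Mir200a (27.8 RPM against 3.31 to 8.40 elsewhere) and Mir200c (12.1 against 0.58 to 1.82). The lymphocyte hairpin Mir150 did too (22.3 against 7.21 to 12.3). The epithelial hairpin Mir141 did not, at 13.5 RPM against 10.4 to 26.5 elsewhere. The part of depth and of these hairpins in the pattern was not tested.

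**Figure D2:**
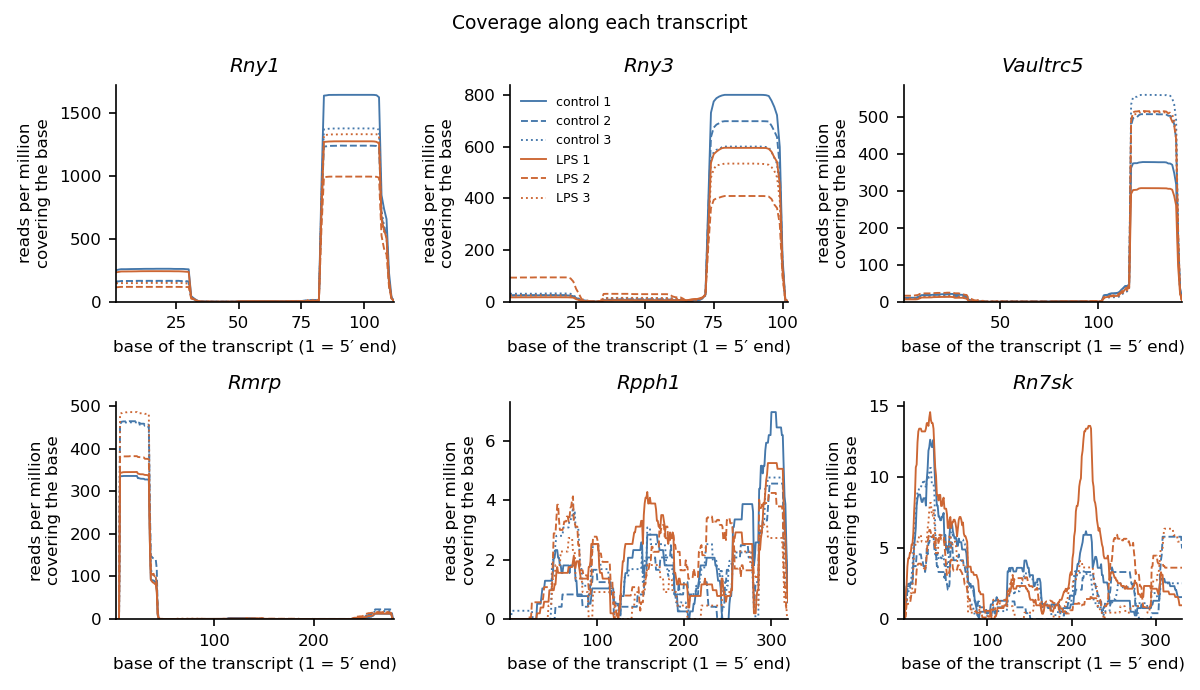
RPM of reads that cover each base (vertical axes, from 0) against the base of the transcript (horizontal axes), with control samples in blue and LPS samples in orange and the replicates as solid, dashed and dotted lines. Reads of Rny1, Rny3 and Vaultrc5 pile up near the 3′ end and those of Rmrp at the 5′ end, whereas those of Rpph1 and Rn7sk spread over the transcript. The dashed orange line of Rny3 reaches 94.5 at base 12, where the other samples lie between 17.7 and 31.3.

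In the predicted fold of lowest energy, the leading 3′ fragment of Rny1 had 15 of its 24 bases paired, all of them with bases 3 to 21. That of Rny3 had 20 of 26 bases paired with bases 1 to 22. The 2 kinds of Y RNA fragment thus lie on opposite strands of 1 predicted stem, yet reads of the 3′ strand outnumbered those of the 5′ strand by 5.29 to 8.96 times in Rny1. In Rny3 this ratio was 19.1 to 34.01 in 5 samples and 4.34 in LPS replicate 2. The proteins that hold Y RNAs were not part of the prediction.

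Vaultrc5, the vault RNA, is a 143-nt RNA on the plus strand of chromosome 18 (36801866 to 36802008, GRCm38). It had 403, 531 and 581 RPM in the control replicates and 324, 544 and 534 with LPS. Replicate 1 was the lowest of its group in both conditions, and the groups overlapped. The means were 505 ± 92.0 and 467 ± 124 (SD, n = 3 each; exact two-sided permutation test, p = 0.7).

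Its fragments mostly shared 1 start. Reads that began at base 117 made up 81.7% on average (78.5 to 86.1% over the samples), and they ended at base 140 (49.5%) or 141 (26.5%), which gave lengths of 24 nt (48.0%) and 25 nt (22.4%). The leading fragment, bases 117 to 140, had 173, 250 and 294 RPM in the control replicates and 158, 225 and 274 with LPS. It is rich in G and C (83.3%, against 53.8% in the whole RNA), and 16 of its 24 bases were paired with bases 1 to 26 in the predicted fold. The 5′ share of Vaultrc5 was 1.59 to 2.75% in the control replicates and 1.62 to 3.05% with LPS (difference of 0.17 percentage points, exact two-sided permutation test, p = 0.6).

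Rmrp, the RNA of RNase MRP, gave fragments of the opposite end. It had 353, 489 and 482 RPM in the control replicates and 362, 401 and 505 with LPS, and the groups overlapped. The means were 441 ± 76.8 and 423 ± 74.0 (SD, n = 3 each; exact two-sided permutation test, p = 1).

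Nearly all Rmrp reads, 94.3 to 95.2% in each sample, began at base 5 of the longer entry, the base before the first base of the shorter one. They ended at base 34 (41.8% on average), 35 (25.4%) or 42 (16.0%), so that reads of 30 and 31 nt led and a second group lay at 37 and 38 nt. The fragment of bases 5 to 34 had 138, 184 and 211 RPM in the control replicates and 152, 165 and 233 with LPS. The 5′ share was 94.5 to 95.2% in the control replicates and 94.4 to 95.4% with LPS, a difference of -0.03 percentage points (exact two-sided permutation test, p = 0.9). It depends on a window that reaches base 5, since a window of 2 bases held none of these reads. The 3′ end of Rmrp gave 12.6 to 22.8 RPM.

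**Figure D3:**
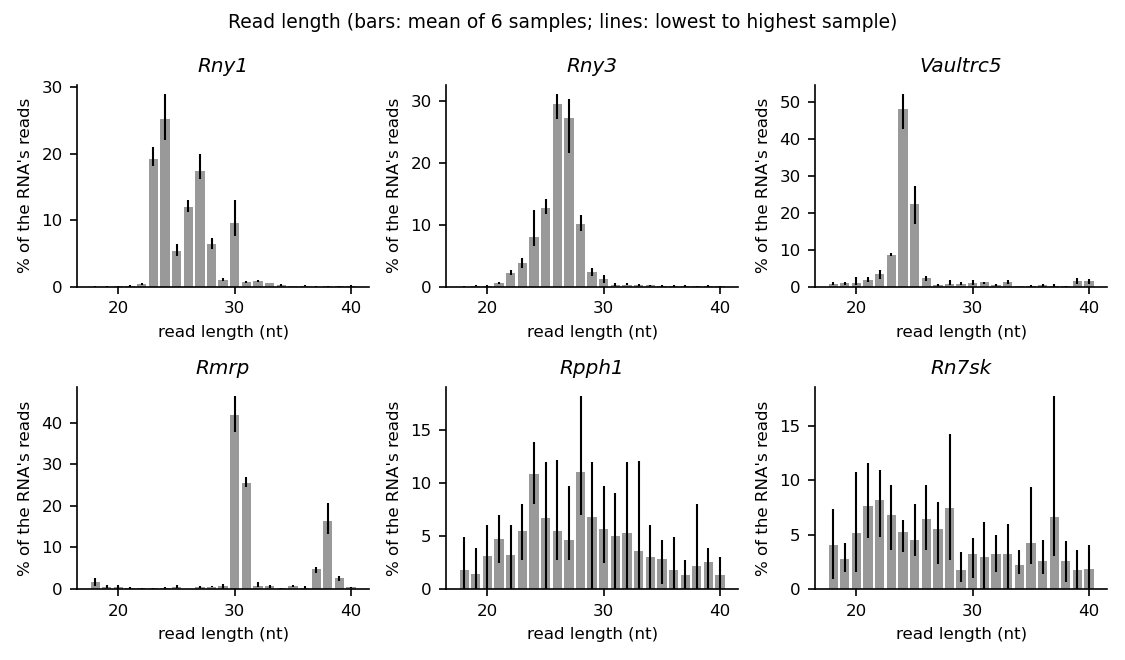
Share of each RNA's reads by read length, as the mean of the 6 samples (grey bars) with lines from the lowest to the highest sample. The leading length is 24 nt in Rny1 and Vaultrc5, 26 and 27 nt in Rny3 and 30 nt in Rmrp, whereas Rpph1 and Rn7sk have no length above 15% on average.

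Rpph1, the RNA of RNase P, was the least read member. It had 82, 33 and 72 reads in the control replicates and 108, 412 and 25 in LPS replicates 1 to 3, or 21.1, 13.7 and 20.2 against 20.98, 23.3 and 11.4 RPM. The groups overlapped, with means of 18.3 ± 4.06 and 18.5 ± 6.33 (SD, n = 3 each; exact two-sided permutation test, p = 1). Of its 732 reads, 70.8% also matched another gene, in 490 cases Ccnb1ip1, a protein-coding gene whose transcripts overlap Rpph1 on the same strand, so the source of these reads is uncertain. Its reads were scattered, with 275 distinct sequences and only 1 read in all that began within the first 5 bases. The leading fragment, bases 286 to 313, matched no other gene and had 2 to 5 reads in 5 samples and 31 in LPS replicate 2. The 5′ share differed by -0.46 percentage points (exact two-sided permutation test, p = 1).

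Rn7sk, the 7SK RNA, gave 38.4, 26.1 and 31.3 RPM in the control replicates and 50.7, 28.4 and 29.1 with LPS. LPS replicate 1 was the highest sample, and the other 5 lay between 26.1 and 38.4. The means were 31.9 ± 6.18 and 36.1 ± 12.7 (SD, n = 3 each; exact two-sided permutation test, p = 0.7). The difference of 4.13 became -3.19 without LPS replicate 1. Of its 1152 reads, 76.0% also matched 1 or more of 61 other genes, mostly the copy Gm24447. This share was 84.1 to 93.3% in 5 samples and 60.6% in LPS replicate 2.

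The place of Rn7sk reads differed between single libraries. At base 215, coverage was 13.2 RPM in LPS replicate 1 and 1.02 to 5.93 in the others. The 37-nt fragment of bases 295 to 331 had 46 reads in LPS replicate 2, where the 27-nt fragment that ends at the same base had 0. In the other 5 samples the 37-nt fragment had 0 to 4 reads and the 27-nt fragment 1 to 4. The 5′ share of Rn7sk was 6.04 to 7.94% in the control replicates and 3.78 to 7.28% with LPS, a difference of -1.49 percentage points (exact two-sided permutation test, p = 0.3).

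**Figure D4:**
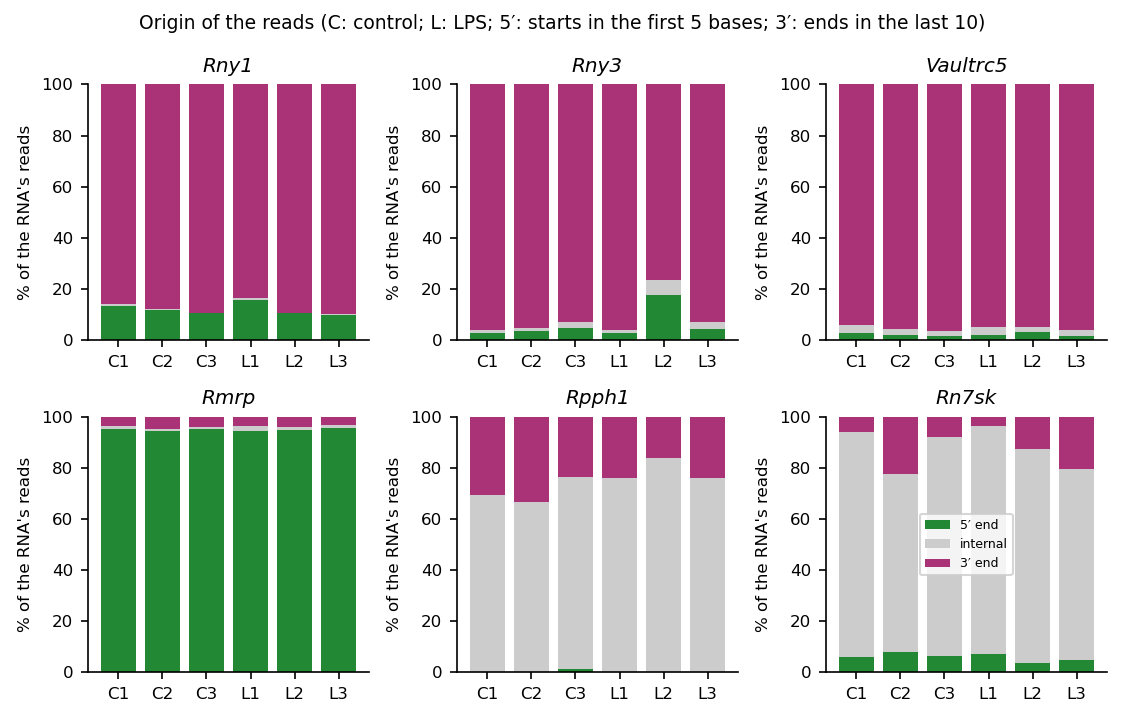
Share of each RNA's reads that start in the first 5 bases (green), end in the last 10 bases (purple) or do neither (grey), in control replicates 1 to 3 (C1 to C3) and LPS replicates 1 to 3 (L1 to L3). Reads of the 3′ end lead in Rny1, Rny3 and Vaultrc5 in all 6 samples and reads of the 5′ end in Rmrp. In Rny3, L2 has a 5′ share of 17.6% against 2.82 to 4.85% in the others.

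The order of the members by mean RPM was Rny1 (1498), Rny3 (657), Vaultrc5 (486), Rmrp (432), Rn7sk (34.004) and Rpph1 (18.4). Rny1 was above every other member in each sample, and Rny3 lay above Vaultrc5 in 5 samples and below it in LPS replicate 2. Vaultrc5 in turn lay above Rmrp in every sample but LPS replicate 1 (324 against 362 RPM). The ranges of Vaultrc5 (324 to 581) and Rmrp (353 to 505) overlapped, and neither order held in every sample. Rn7sk was above Rpph1 in every sample. These are totals of fragments per RNA and not levels per length.

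Fragments with extra bases at the 3′ end, which the exact match leaves out, were counted apart. Reads that matched after 1 to 3 bases were removed made up 9.83 to 12.5% of Rny1 reads (exact and extended together), 11.5 to 13.9% in Rny3, 13.6 to 24.7% in Vaultrc5 and 2.07 to 2.84% in Rmrp. The added bases were A alone in 61.1% of the extended Rny1 reads, 72.8% in Rny3, 56.3% in Vaultrc5 and 73.7% in Rmrp, and T alone in 3.47 to 6.72% of them. Among single added bases, A was the most frequent in these 4 RNAs (67.7 to 78.1%) and G the next in the Y RNAs and Vaultrc5 (16.9 to 26.2%). Sequencing errors and added bases cannot be told apart here.

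Reads with a single added A made up 6.83, 5.26 and 6.70% of Rny1 reads in the control replicates and 7.03, 5.69 and 5.49% with LPS. The groups overlapped. In Rny3 they made up 8.94, 7.498 and 8.21% in the control replicates and 8.99, 8.37 and 9.73% with LPS, which also overlapped.

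Rpph1 differed in the place of these extended reads. They made up 25.5 to 45.7% of its reads, and 92.5% of them ran past the last base of the GENCODE entry. In the Y RNAs, Vaultrc5 and Rmrp 0 to 4.33% did so, and in Rn7sk 13.8%. Extended reads of Rn7sk made up 13 to 31.2% of its reads, with A alone in 58.6% and T alone in 23.9% of them. Of the 308 reads of Rpph1 past its last base, 179 continued with CTC and 85 with CT. These reads are not in the 3′ share of Rpph1 (4 to 19.5%), and without a genome sequence their source was not determined.

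LPS was then compared with control across all features in 1 fit (quasi-likelihood test of edgeR, with p-values adjusted over the 440 features after Benjamini and Hochberg). No member was called, and no feature was, so the share called was 0%. At an unadjusted p under 0.05, 6 features were higher with LPS and 0 lower, and DESeq2 also called 0. The log2 fold changes of the Y RNAs were -0.13 ± 0.20 (SE) for Rny1 and -0.24 ± 0.21 for Rny3. Those of the others were 0.03 ± 0.34 for Vaultrc5, 0.05 ± 0.27 for Rmrp, 0.19 ± 0.40 for Rpph1 and 0.28 ± 0.31 for Rn7sk. The adjusted p was 0.999 for all 6.

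Of the members, 4 had a fold change above 0 and 2 below it, with a median of 0.04 on the log2 scale, against -0.01 over all features and -0.13 over the other small RNA features. The Y RNAs were below 0 under every scaling tried. Vaultrc5 and Rmrp changed sign when library totals replaced TMM, to -0.11 and -0.062. Without LPS replicate 2, Vaultrc5 became -0.26, Rmrp -0.05 and Rpph1 -0.18, whereas Rny3 was -0.32 and Rn7sk 0.31. With reads that matched no other gene, Rpph1 became -0.34 and Rn7sk 1.15, neither of them called. Few reads of these 2 RNAs remained then, and most of those of Rn7sk were from LPS replicate 2.

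**Figure D5:**
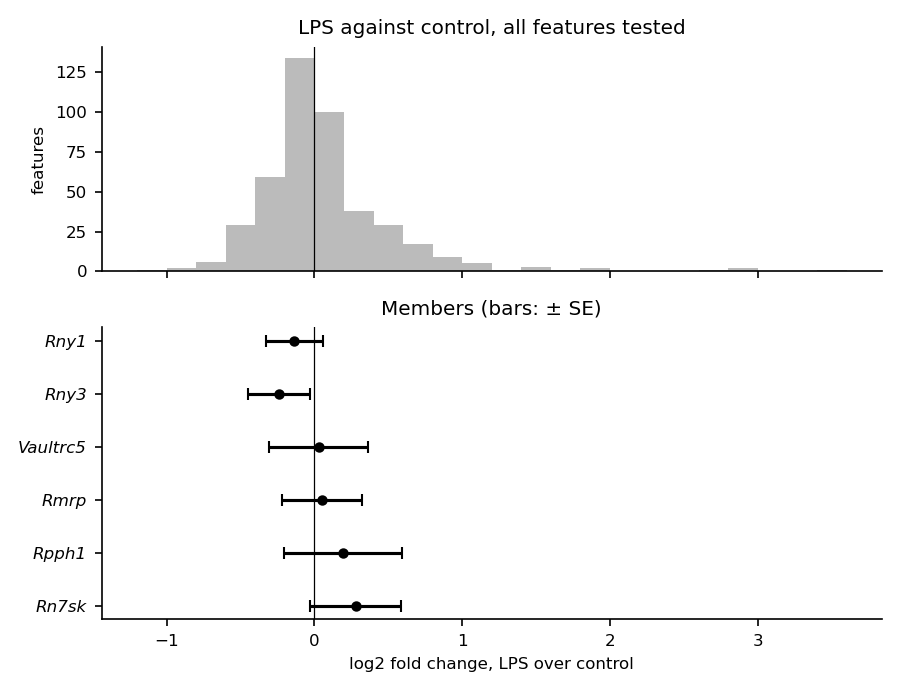
Log2 fold change of LPS over control for all 440 features tested (upper panel, number of features) and for the 6 RNAs (lower panel, points with bars of ± SE). The 6 points lie between -0.24 and 0.28, within the bulk of all features, and the bars of Rny1, Vaultrc5, Rmrp, Rpph1 and Rn7sk reach across 0.

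Other small RNAs of the same kind, most of them made by RNA polymerase III or parts of the splicing machinery, were read as a list. It held 54 genes, and 44 had reads. The 5S ribosomal RNA genes (n-R5s) were entered only if they had reads, so the 44 is partly set by that rule. In all, 12 passed the filter on low counts and none was called (0 of 12 higher, 0 of 12 lower, 0% over all features). Of the 12, 6 had a log2 fold change above 0 and 6 below it, with a median of -0.04. No gene of the 12 had all LPS samples below the control samples, against 3.41% of all features, and 1 had them above, against 1.36% (n-R5s130, a 5S ribosomal RNA gene, at 4.30 to 6.02 RPM with LPS against 0.83 to 2.80; named after its values were seen).

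The 3 genes of that list with most reads were the 5S ribosomal RNA gene n-R5s149, the U1 spliceosomal RNA Rnu1a1 and the signal recognition particle RNA Rn7s2. n-R5s149 had 976 to 1853 RPM in the control replicates and 969 to 2914 with LPS. Rnu1a1 had 517 to 809 and 456 to 753. Rn7s2 had 202 to 225 in the control replicates and 231, 468 and 213 in LPS replicates 1 to 3, so LPS replicate 2 alone stood out.

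The features most like each member over the 6 samples were sought among the 214 other small RNA features, by the mean absolute difference of centred log2(RPM + 1). Rny1 was closest to the small nucleolar RNAs Snora30 (0.05), Gm25970 (0.09) and Snord87 (0.09). Rny3 was closest to Gm25835 (0.12), Rnu7 (0.13) and Snora44 (0.14), and Rmrp to Rnu1a1 (0.12), Gm25744 (0.12) and Gm27896 (0.14). Vaultrc5 was closest to Gm27896 (0.20), Gm25744 and Snord1a (0.23 each), Rpph1 to Snord82 (0.18), Rnu3b4 (0.18) and Gm22357 (0.21), and Rn7sk to Gm22357, Snord52 (0.12 each) and Rnu7 (0.13). All of these values share the same 6 libraries and their depth, and low genes such as Snora30 (1.87 to 3.87 RPM) vary little on this scale.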

How the data were processed

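Small RNAs of BMMs (3 control samples, 3 with LPS) had been sequenced from TruSeq small RNA libraries on a HiSeq instrument. Per the study's methods, the authors trimmed adaptors with perl scripts and Btrim64. The deposited files hold raw read counts of each distinct trimmed read (11 to 40 nt), without normalization or gene names. The submitters' processing notes name mm9, which was not needed, since reads were matched here to GENCODE M21 transcripts (GRCm38) and no genome sequence was used.

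Reads of 18 to 40 nt were matched exactly to 2202 hairpins and 3911 other small RNA transcripts. A read of several features went to a hairpin first, then to a member, then to any other feature, and within a class to the one with most reads. The matching was tested on simulated data. Members and lists were chosen with earlier results of these data known, and named fragments, list genes and likest features follow a rule of rank. No sequence of Vaultrc5 is reported here.

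Features were filtered with filterByExpr, normalised by TMM and tested with edgeR 4.0.16 (R 4.3.3). The SE was taken as the size of the log2 fold change over the root of its F value. Exact permutation tests and Wilson intervals used Python 3.11.15 with scipy 1.17.1, and folds RNAfold 2.7.2. Alternatives were DESeq2 1.42.0, other scalings, filters, matches and end windows, the replicate block and each sample left out. The numbers in the sample titles were used to pair the samples. Neither the labels nor the study's methods say what samples of the same number share. Deviations from the group means correlated at 0.70, 0.27 and 0.40 for numbers 1 to 3, against -0.49 to 0.16 for different numbers. Such deviations depend on each other within a group, so these values do not establish a pairing. Depth was 2201520 to 17691405 reads, and Rpph1 and Rn7sk had the fewest reads, 25 to 503 per sample.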

Additional observations from a re-analysis of the deposited data

How the results depend on the processing

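No member was called under any alternative, and over all features 0 were called in 13 of 14 alternatives. Without the count filter 9 of 1200 features were called, none of them a member. The replicate block changed no call, and it turned Vaultrc5 from 0.03 to -0.020. The block left the differences in RPM as they were, with p = 0.25 for both Y RNAs in an exact sign-flip test, the smallest that 3 pairs allow. The pairs of the other members were mixed. Rny3 was the 1 member with LPS below every control sample. With TMM or when scaled to hairpin reads (both chosen after seeing the data), 0 members were so. Without LPS replicate 2 it was again 1, but leaving out an LPS sample could not have undone the result for Rny3. Among 84 alternative log2 fold changes, 11 had the other sign, all of Vaultrc5, Rmrp or Rpph1: library totals gave -0.11 for Vaultrc5 and -0.062 for Rmrp, 3 unmatched bases -0.011 for Vaultrc5, and reads of 1 gene -0.34 for Rpph1. With each sample left out, log2 fold changes ran from -0.23 to -0.035 in Rny1 (the latter without control replicate 1), from 0.048 (without LPS replicate 1) to 0.44 in Rn7sk, from -0.26 to 0.29 in Vaultrc5, from -0.11 to 0.21 in Rmrp and from -0.18 to 0.48 in Rpph1. Differences in RPM ran from -354 to -102 in Rny1, from -88.8 to 34.1 in Vaultrc5, from -62.7 to 12.0 in Rmrp, from -2.15 to 3.82 in Rpph1 and from -3.19 to 7.94 in Rn7sk, and scaled to hairpin reads Rmrp became 14.5. Differences in 5′ share (percentage points) ran from -1.64 to 1.27 in Rny1, from -0.19 to 7.21 in Rny3, from -0.24 to 0.51 in Vaultrc5, from -0.29 to 0.21 in Rmrp, from -0.69 to 0 in Rpph1 and from -2.51 (without LPS replicate 1) to -0.76 (without LPS replicate 2) in Rn7sk. Reads centred on the 5′ side of the midpoint gave -0.16 in Vaultrc5, 0.33 in Rmrp and 7.08 in Rpph1, and the 2-base window gave 0 in Rmrp and Rpph1, since it holds none of their reads. The causes of these changes were not tested. Rpph1 and Rn7sk rest on the fewest reads.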
